A study of Homo sapiens with 7 samples.

Results

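The short arm of human chromosome 1 was examined from its tip to position 70 Mb, gene by gene, for the level of RNA in 2 CRISPR-Cas9 edited derivatives of the multiple myeloma line RPMI 8226. A gene was a member of the stretch when it was protein-coding, started below 70 Mb on GRCh38 by its lower coordinate, whatever its strand (GENCODE release 29), and averaged at least 5 CPM (its reads per 1000000 reads of the library) in the wild-type libraries, with 9 named genes and the collagen genes left out. By these criteria 425 of the 783 protein-coding genes that start below 70 Mb were members. Members were chosen by position and by their measured RNA level in the WT libraries, so every count of members against wild type is a description. The stretch itself was chosen with earlier results of these data known. The 565 protein-coding genes of chromosome 1 that start at or above 70 Mb and met the same level served for comparison, of which 137 lie between 70 Mb and the gene-free gap around the centromere and 428 lie past that gap. A further 8771 protein-coding genes of the other chromosomes met the level.

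RNA was counted in 7 bulk libraries labelled as RPMI 8226, a line of cancerous plasma cells, and the groups were set side by side to ask how expression differs with each edit of HDAC6. In 3 libraries, labelled RY, the cells carried a change of 2 residues in the ZnF-UBP domain of HDAC6, the zinc finger that binds ubiquitin. In another 2 libraries, labelled KO, HDAC6 was knocked out, and the last 2 libraries, labelled WT, came from unedited cells. All were grown in the same serum-containing medium with no treatment named. The labels describe a single edited line for each change and do not say whether it grew from 1 clone or whether replicates were separate cultures, so p-values measure the spread between libraries, which may be technical, and an effect of an edit cannot be told apart from a difference between lines.

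Gene dosage is the dependence of RNA output on how many copies of a chromosome segment a cell carries. When a segment is lost or gained in only some copies, its genes usually shift together by a small and similar amount, across functions, with an abrupt end where the segment ends. Losses on the short arm of chromosome 1 and gains of its long arm are recurrent in multiple myeloma, and lines such as RPMI 8226 have rearranged chromosomes. Only RNA was measured here, and no DNA copy number is available from these data. In bulk RNA, fewer cells that express a gene and less RNA per cell cannot be told apart.

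HDAC6 itself, the targeted gene, gave 90.4, 110.4 and 96.5 CPM in the RY libraries, 19.0 and 12.8 CPM in the KO libraries and 57.2 and 77.3 CPM in the WT libraries. It was lowest in both KO libraries, with a log2 difference of -2.08 ± 0.21 against WT (SE, edgeR quasi-likelihood test, adjusted p = 0.000229). Library totals ran from 31368968 to 42813888 counted reads. The 9 plasma cell markers, SDC1, JCHAIN, MZB1 and IRF4 among them, summed to 327.6 to 371.8 CPM in the RY libraries, 4607 to 5420 CPM in KO and 7404 to 8445 CPM in WT, with TNFRSF17 at 0 reads in RY. The 9 myeloid markers summed to 1127 to 1273 CPM in RY, 1.10 to 4.53 CPM in KO and 51.3 to 90.0 CPM in WT. The 4 epithelial markers summed to 0 to 0.242 CPM in RY, 142 CPM in KO and 176 to 180.0 CPM in WT. The 6 B cell markers summed to 26.2 to 30.2 CPM in RY, 2.28 to 2.42 CPM in KO and 14.9 to 19.9 CPM in WT. They went both ways, since MS4A1 averaged 0.00834 CPM in RY and 13.6 CPM in WT. PAX5 and CD79A averaged 9.88 and 11.8 CPM in RY and 0.812 and 2.24 CPM in WT. Among the plasma cell markers, JCHAIN averaged 2156 CPM in KO and 5196 CPM in WT, while MZB1 averaged 1505 and 1346 CPM. The 6 T cell markers stayed below 2 CPM in every library. Of the single markers, SDC1 gave at most 0.05 CPM in RY, 245.9 and 236.4 CPM in KO and 245.1 and 157.9 CPM in WT, and MPO, a myeloid enzyme, gave 931, 1057 and 953 CPM in RY, 0.0844 and 3.51 CPM in KO and 41.5 and 76.4 CPM in WT. The libraries labelled RY thus stood apart from WT and KO on the markers of the labelled cell type itself. Whether they come from RPMI 8226 was not tested, nor was the part of this difference in the RY results given here.

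The 4 promoters below are shown because they mark the places the results turn on. SLC35D1, an endoplasmic reticulum transporter of nucleotide sugars, and SERBP1, an mRNA-binding protein, stand on either side of the point where the KO difference ended. PATJ, a scaffold of the cell polarity complex, and ATAD3C, a member of the mitochondrial ATAD3 family, had no reads in RY. Each window runs from 250 bases before to 50 bases after the gene start in RefSeq (GRCh38.p14), is written 5′ to 3′ on the strand of the gene in lower case, and has the letters GGGCGG or, on the other strand, CCGCCC in capitals. SLC35D1 is at chr1:67054099-67054398 on the minus strand, SERBP1 at chr1:67430353-67430652 on the minus strand, PATJ at chr1:61742230-61742529 on the plus strand and ATAD3C at chr1:1449439-1449738 on the plus strand.
SLC35D1: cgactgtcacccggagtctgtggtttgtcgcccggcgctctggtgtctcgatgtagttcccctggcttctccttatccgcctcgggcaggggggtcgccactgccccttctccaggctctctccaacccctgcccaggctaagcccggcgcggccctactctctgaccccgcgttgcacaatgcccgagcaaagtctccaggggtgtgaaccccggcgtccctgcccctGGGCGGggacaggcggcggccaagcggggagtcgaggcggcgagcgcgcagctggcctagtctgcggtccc
SERBP1: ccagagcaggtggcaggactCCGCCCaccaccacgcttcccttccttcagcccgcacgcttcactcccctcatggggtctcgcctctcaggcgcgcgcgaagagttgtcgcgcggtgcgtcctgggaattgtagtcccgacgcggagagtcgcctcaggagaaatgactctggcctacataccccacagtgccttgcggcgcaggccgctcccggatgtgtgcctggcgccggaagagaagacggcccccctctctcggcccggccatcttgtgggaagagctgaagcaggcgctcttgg
PATJ: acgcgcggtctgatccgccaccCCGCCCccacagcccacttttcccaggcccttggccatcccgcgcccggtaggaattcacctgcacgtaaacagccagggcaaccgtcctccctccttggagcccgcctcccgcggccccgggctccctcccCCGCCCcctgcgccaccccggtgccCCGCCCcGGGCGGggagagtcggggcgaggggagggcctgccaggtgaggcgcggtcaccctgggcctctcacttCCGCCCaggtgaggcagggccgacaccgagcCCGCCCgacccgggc
ATAD3C: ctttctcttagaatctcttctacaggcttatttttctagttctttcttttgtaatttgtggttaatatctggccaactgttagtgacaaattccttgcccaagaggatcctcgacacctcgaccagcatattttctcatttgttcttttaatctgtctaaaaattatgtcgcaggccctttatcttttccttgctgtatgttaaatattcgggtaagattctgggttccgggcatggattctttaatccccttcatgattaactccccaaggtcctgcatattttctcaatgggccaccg
SLC35D1 and SERBP1 each held 27 CG pairs and a single GGGCGG match. PATJ held 30 CG pairs and 6 matches of GGGCGG on either strand, and ATAD3C held 6 CG pairs and no match. Promoters were found for 374 of the 425 members. GGGCGG on either strand was present in 74.9% of them, in 69.2% of the 497 promoters found for the chromosome 1 genes above 70 Mb and in 58.5% of 15843 protein-coding promoters. CCAAT was present in 39.6% of member promoters and 36.4% of all promoters, CACGTG in 12.0% and 8.88%, and TATAAA in 3.74% and 9.63%. Members had a median of 28 CG pairs per window, against 22 over all promoters. A match describes the letters of a window and is not a binding site.

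RNA from the short-arm stretch was lower in KO than in WT by a small amount over nearly its whole length. The median log2 difference of the 425 members was -0.35, with quartiles of -0.48 and -0.20, so the median member stood at 78.2% of its WT level. The log2 difference was negative for 383 members and positive for 42. Over the 565 genes above 70 Mb the median was -0.0018, over the other chromosomes -0.0059, and over all 18281 genes tested -0.0089. The member median minus the median of the genes above 70 Mb was thus -0.35 on the log2 scale. The difference was concentrated in a narrow band of sizes, since 232 of 425 members lay between -0.5 and -0.2, where 70 of the 565 genes above 70 Mb lay. Between -0.2 and 0.2 the counts were 90 members and 345 genes above 70 Mb.

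**Figure D1:**
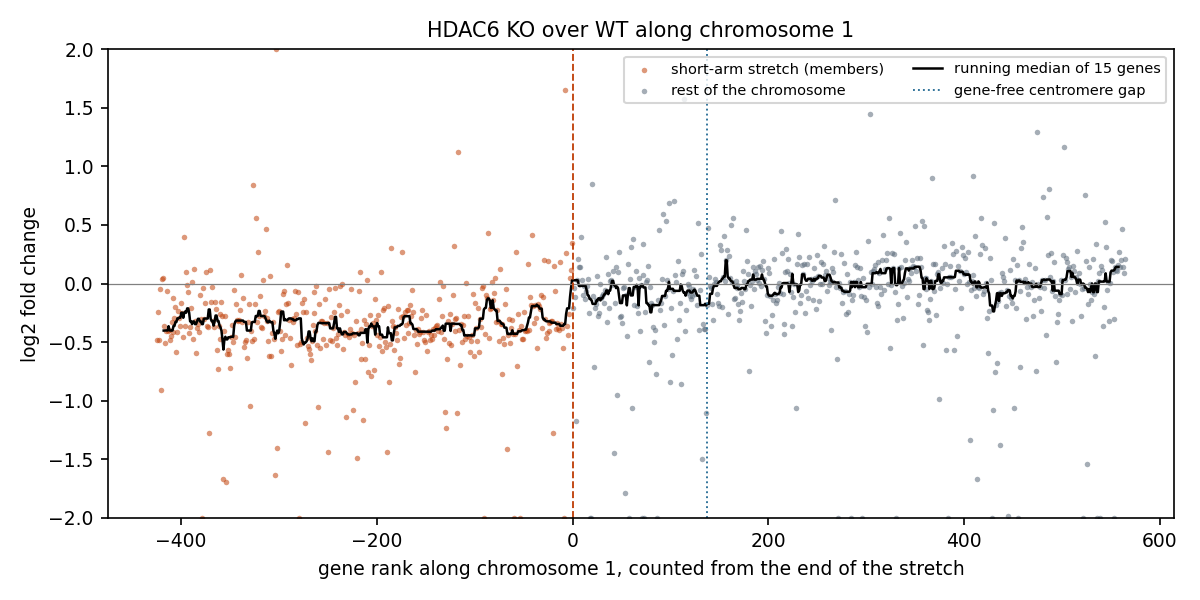
Log2 fold change of KO over WT (vertical axis) for each expressed protein-coding gene of chromosome 1 in order of position, with genes counted from the end of the stretch (horizontal axis). Each point is a gene, orange within the stretch and grey beyond it, the black line is the running median of 15 genes, the dotted line marks the centromere gap, and points past the axis limits are drawn at the limit. Members centre on -0.35 and the genes beyond on -0.0018, with the change of level close to the dashed line.

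By the edgeR quasi-likelihood test over all genes, with a Benjamini-Hochberg adjusted p under 0.05 and no minimum fold, 138 members (32.5%) were lower in KO and 5 (1.18%) were higher. Over all genes tested 10.7% were lower and 5.32% higher. Of the genes above 70 Mb, 56 of 565 (9.91%) were lower. With a fold of at least 2 in addition, 22 members (5.18%) were lower and 3 (0.706%) higher, against 7.64% and 3.3% of all genes. Among genes that met the same WT level, 4.96% of those above 70 Mb and 4.17% on the other chromosomes were lower. The higher shares there were 0.708% and 1.01%, so members were close to genes of like level at that size. Both KO libraries lay below both WT libraries for 276 members (64.9%), against 25.9% of all genes, and above both for 16 (3.76%), against 22.8% of all genes. The authors' deposited table of KO against WT, limited to genes past 2-fold, listed 26 of the 425 members, 23 of them lower. It listed 32 of the 565 genes above 70 Mb, 28 of them lower, and 2336 of all 60666 genes, 1579 of them lower.

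The number of lower calls depended on which libraries entered. Without the RY libraries, in a fit of KO and WT alone, 39 members were lower in KO, and leaving out RY replicates 1, 2 and 3 in turn gave 90, 82 and 79. Without KO replicate 1 or KO replicate 2 it was 37 and 44, and without WT replicate 2 it was 227. The member median minus the median of the genes above 70 Mb stayed between -0.352 and -0.315 in every fit that left out a library. The member median itself moved more, from -0.408 without WT replicate 2 to -0.283 without WT replicate 1. In counts simulated for KO against WT, 1 of 50 genes lowered to 0.8 of their level was recovered, and 44 of 50 lowered to 0.5. That simulation changed 50 genes at each fold among 16280 tested, far fewer than were called in the data. The adjustment of p is stricter when few genes change. These recoveries therefore do not give the share recovered in the data, where 32.5% of members were called lower.

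The shift was present in each KO library by itself. The median over members of the log2 ratio of a library to the WT mean was -0.331, -0.397 and -0.3245 in the RY libraries, -0.397 and -0.307 in the KO libraries, and 0.063 and -0.066 in the WT libraries. The WT libraries differed from each other on the members by a median of 0.129, WT replicate 1 being higher. That is near the top of the range of -0.042 to 0.132 that the other chromosomes gave for the same pair. Over the genes above 70 Mb the pair differed by 0.018, and in the 10 Mb windows of the stretch by -0.056 to 0.153. For the 4 pairs of a KO and a WT library the member median ran from -0.432 to -0.25. Each of these pairs was larger in size than the difference between the WT libraries. As a share of all reads, members took 4.44%, 4.21% and 4.38% in RY, 3.80% and 4.07% in KO, and 5.27% and 4.75% in WT, so the KO and WT libraries did not overlap.

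**Figure D2:**
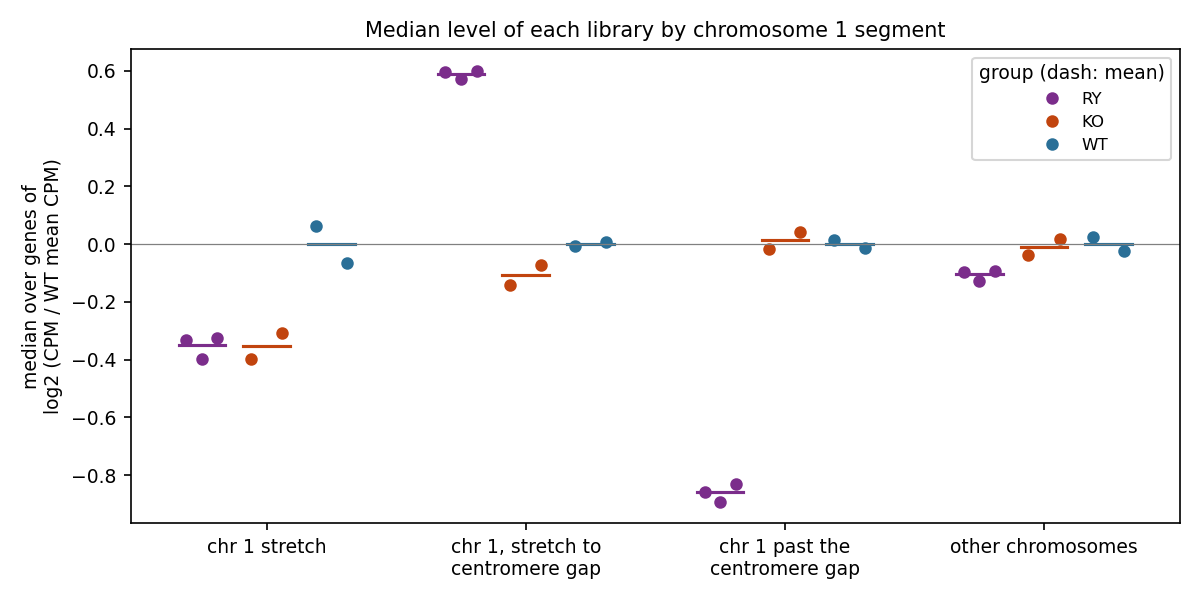
Median over genes of the log2 ratio of CPM in a library to mean WT CPM (vertical axis) for 4 sets of genes (horizontal axis), with a point per library and a dash at the group mean. Both KO libraries stand apart from WT in the stretch, at -0.397 and -0.307, and lie between -0.142 and 0.041 in the 3 other sets, whereas the RY libraries lie near -0.35 in the stretch, near 0.6 from there to the centromere gap and near -0.86 past it.

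At the scale of 10 Mb, position within the stretch made little difference in KO. In consecutive windows of 10 Mb from the tip, the median log2 difference was -0.35 over 76 members, -0.32 over 59, -0.41 over 88, -0.39 over 73, -0.34 over 69, -0.32 over 42 and -0.34 over 18. The lower calls in these windows numbered 22, 18, 37, 30, 20, 8 and 3. Over all members 32.5% were lower, and over all genes tested 10.7%. The running median of 15 genes varied more. It was -0.56 at SPSB1 (9.29 Mb), -0.13 at EIF2B3 (44.85 Mb) and -0.18 at LRP8 (53.24 Mb), and past 70 Mb it reached -0.25 at CLCC1 (108.93 Mb). Beyond 70 Mb the windows with at least 19 genes had medians between -0.17 and 0.12. The 137 genes between 70 Mb and the gap had a median of -0.10, which is 93.2% of WT, with 21 of 137 (15.3%) lower, and the 428 genes past the gap had a median of 0.018. On the other 22 chromosomes the median ran from -0.17 on X to 0.10 on 21. No run of 50 neighbouring genes among 7402 such runs on the other autosomes reached the member median, the lowest being -0.21 on chromosome 10. On X, which carries HDAC6, 88 of 271 such runs lay below the member median, the lowest at -1.06.

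Where the KO difference ended was placed by the single split of chromosome 1 that left the smallest summed distance of the genes to the medians on either side. That split fell between SLC35D1, which starts at 66999332, and SERBP1, which starts at 67407810, just below the 70 Mb limit. The limit was chosen with earlier results of these data known, so its nearness to the split is only a description. The 422 genes before it had a median of -0.36 and the 568 genes after it a median of -0.00097. SLC35D1 gave 8.95, 9.37 and 11.3 CPM in RY, 12.4 and 14.4 CPM in KO, and 17.9 and 14.2 CPM in WT. Its KO and WT libraries overlapped, and the log2 difference of -0.26 ± 0.18 was not significant (SE, edgeR, adjusted p = 0.416). SERBP1 gave 557, 476 and 529.9 CPM in RY, 506 and 634 CPM in KO, and 638 and 465 CPM in WT. All 3 groups overlapped for SERBP1, with a log2 difference of 0.05 ± 0.17 for KO against WT.

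None of the other 5 genes nearest the 70 Mb limit passed the test for KO against WT. GADD45A, a stress-induced inhibitor of growth, gave 10.7, 12.9 and 11.6 CPM in RY, 33.4 and 30.5 CPM in KO, and 27.0 and 31.8 CPM in WT. DEPDC1, expressed in dividing cells, gave 34.9, 38.9 and 37.6 CPM in RY, 35.0 and 45.0 CPM in KO, and 36.2 and 26.8 CPM in WT. For both genes the KO and WT libraries overlapped, with log2 differences of 0.12 ± 0.14 and 0.34 ± 0.17 (SE). Just past the limit, LRRC40, SRSF11, a splicing factor, and ANKRD13C had KO differences of -0.21 ± 0.11, -0.04 ± 0.09 and -0.11 ± 0.10, with both KO libraries below both WT libraries for each of them. The members just inside the level criterion were AJAP1, SVBP and KDF1, with 5.12, 5.13 and 5.13 CPM in WT, and genes just outside included GPR3 and ZFYVE9, with 4.56 and 4.65 CPM.

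Members of every WT level shared the shift. The KO median was -0.31 over the 90 members with 5 to 20 CPM in WT, -0.29 over 111 with 20 to 50, -0.40 over 93 with 50 to 100 and -0.38 over the 131 with 100 CPM or more. In the last class, where counting noise is smallest, the quartiles were -0.47 and -0.28, and 56 of 131 members were lower and none higher. The 136 genes above 70 Mb of the same class had a median of 0.00077, with 9 lower and 3 higher. All 5 members that were higher in KO had under 20 CPM in WT.

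The 9 groups of members by function, which together held 230 of the 425 members, were lower in KO by nearly equal amounts. Their medians ran from -0.41 to -0.34, and no member of any of them was higher in KO by edgeR after adjustment or by DESeq2, with 2 higher at an unadjusted p under 0.05. Among 33 genes of the endoplasmic reticulum, Golgi and vesicle traffic 15 were lower, among 32 of chromatin and transcription 11, and among 29 of signalling and small GTPases 10. Of 27 mitochondrial proteins 9 were lower, and of 24 genes listed under splicing and mRNA processing 8. The last count includes SMAP2 (log2 difference -0.53, edgeR, adjusted p = 0.0261), which acts in vesicle traffic and not in splicing. The counts were 8 of 28 metabolic enzymes, 8 of 27 cell cycle, replication and repair genes, 8 of 22 ubiquitin pathway genes and 4 of 20 ribosomal and translation genes. The remaining members, on no such list, held 60 of the 138 lower calls. Over all 425 members 32.5% were lower and 1.18% higher in KO, and over all genes tested 10.7% and 5.32%.

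**Figure D3:**
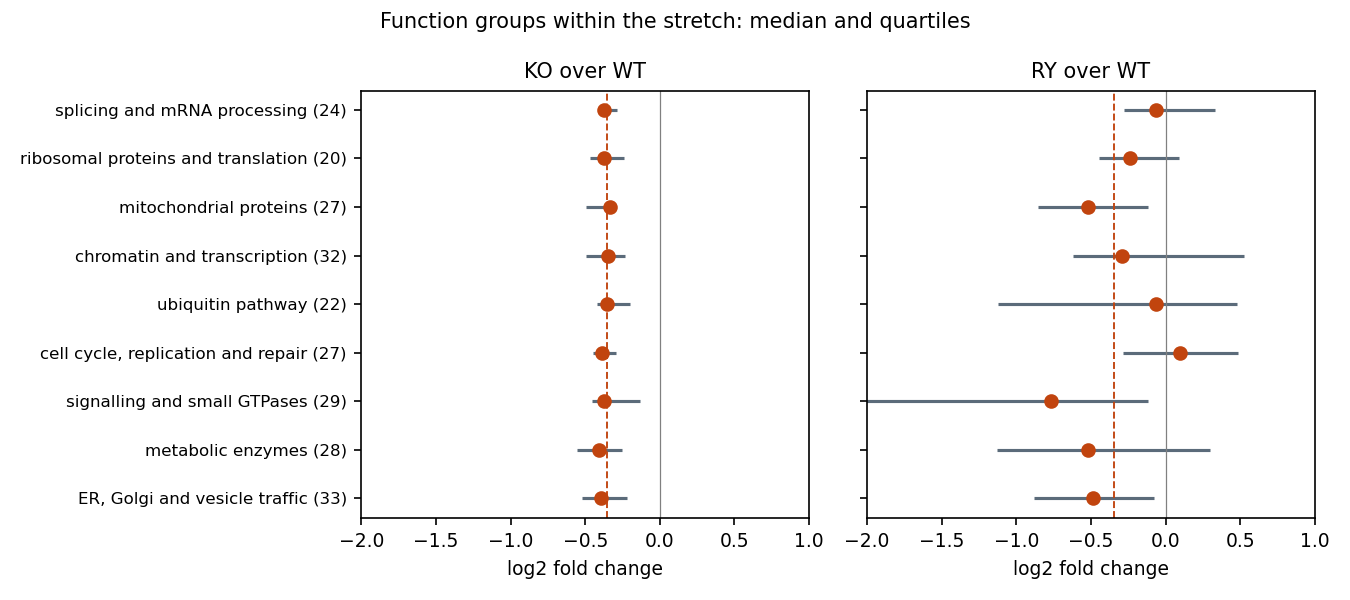
Median (point) and quartiles (bar) of the log2 fold change in 9 function groups of members, with the number of measured members in brackets, for KO over WT (left) and RY over WT (right). The dashed line is the median of all 425 members. The KO medians lie between -0.41 and -0.34, and the RY medians between -0.77 and 0.09, with 1 bar cut at the axis limit of -2.

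The 3 members described next had many WT reads, passed the test and differed in KO by more than the member median. DDOST, a subunit of the enzyme that attaches sugar chains to proteins entering the endoplasmic reticulum, gave 346, 323 and 349.5 CPM in RY, 439.6 and 425 CPM in KO, and 691 and 713 CPM in WT. The groups did not overlap, and DDOST fell in KO against WT, with a log2 difference of -0.70 ± 0.09 (SE, edgeR, adjusted p = 0.00109). RCC2, which acts in mitosis, gave 529, 492 and 521 CPM in RY, 307 and 323 CPM in KO, and 436 and 438 CPM in WT. KO was lowest for RCC2 without overlap, with a log2 difference of -0.47 ± 0.09 against WT (adjusted p = 0.00834, edgeR). GNB1, a G protein beta subunit, gave 520.4, 459 and 495 CPM in RY, 355 and 359.5 CPM in KO, and 484 and 497 CPM in WT. RY and WT overlapped for GNB1 while KO lay below both, with a log2 difference of -0.46 ± 0.10 against WT (adjusted p = 0.0125, edgeR). Among the fits that left out a library or used KO and WT alone, the call of DDOST held with each library left out, while those of RCC2 and GNB1 were lost without KO replicate 1 (adjusted p = 0.0783 and 0.085), without KO replicate 2 (0.0574 and 0.0932) and with KO and WT fitted alone (0.0698 and 0.0769).

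Other members with many WT reads fell in KO by similar amounts. RBBP4, a histone-binding subunit of several chromatin complexes, gave 304.5, 288 and 297 CPM in RY, 389 and 387 CPM in KO, and 507 and 498 CPM in WT, a log2 difference for KO of -0.37 ± 0.09 (adjusted p = 0.0203, edgeR). The 3 groups of RBBP4 were fully separate, with WT highest. YBX1, an RNA- and DNA-binding cold shock protein, fell with a log2 difference of -0.50 ± 0.13, and UBR4, a ubiquitin ligase, with -0.40 ± 0.10. NRDC, a metalloprotease, fell with -0.40 ± 0.09 and PGD, of the pentose phosphate pathway, with -0.50 ± 0.14. Among the same fits, these 5 calls were lost with KO and WT alone, and each without KO replicate 1 and without RY replicate 2 and RY replicate 3, among others, at adjusted p from 0.0519 to 0.165 for RBBP4, 0.0558 to 0.188 for YBX1, 0.0554 to 0.204 for UBR4, 0.0526 to 0.156 for NRDC and 0.074 to 0.249 for PGD.

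Several members with many reads did not pass the test in KO. ENO1, a glycolytic enolase, gave 2462, 2096 and 2296 CPM in RY, 1844 and 2491 CPM in KO, and 3724 and 2309 CPM in WT. The KO and WT libraries overlapped, since WT replicate 1 was far above WT replicate 2, and the log2 difference of -0.48 ± 0.23 was not significant (edgeR, adjusted p = 0.215). The log2 difference of KO was -0.24 ± 0.11 for RPL11, a ribosomal protein whose processed pseudogenes make its count uncertain. It was -0.23 ± 0.12 for SFPQ and -0.17 ± 0.12 for HNRNPR, both nuclear RNA-binding proteins, and -0.17 ± 0.10 for UQCRH, of respiratory complex III. For USP1, a deubiquitinase of DNA repair, it was -0.38 ± 0.14, for LAPTM5, a lysosomal protein of blood cells, -0.14 ± 0.12 and for STMN1, which destabilises microtubules, -0.04 ± 0.11, and none of these was significant.

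The 5 members that were higher in KO differed from WT by 0.56 to 3.42 on the log2 scale. ACTL8, an actin-like gene of testis and some cancers, gave 0.80, 0.554 and 0.333 CPM in RY, 138 and 169 CPM in KO, and 18.3 and 10.5 CPM in WT. The groups did not overlap, and ACTL8 rose by 3.42 ± 0.28 in KO against WT (log2, SE, edgeR, adjusted p = 8.29e-05). RAVER2, an RNA-binding protein, gave 40.6 and 44.0 CPM in KO and 15.7 and 11.3 CPM in WT, and rose by 1.65 ± 0.19 (adjusted p = 0.000448, edgeR), with 2 reads in all in RY. HIVEP3, a zinc finger transcription factor, rose by 1.13 ± 0.20. The other two, DHRS3, a retinaldehyde reductase, and TMEM51, named because the count is small, rose by 0.84 ± 0.12 and 0.56 ± 0.14. The call of TMEM51 was lost without KO replicate 1 (adjusted p = 0.172, edgeR), KO replicate 2 (0.0552) or RY replicate 3 (0.0615) and with KO and WT fitted alone (0.105), and those of the others held in these fits.

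A set of 4 members fell far below the shared shift in KO. FAF1, which binds ubiquitylated proteins and is listed among myeloma deletion genes, gave 167, 150.4 and 159 CPM in RY, 0 and 0.480 CPM in KO, and 6.41 and 11.3 CPM in WT. The groups did not overlap, with a log2 difference of -5.23 ± 0.58 in KO against WT (SE, edgeR, adjusted p = 0.000371). ARMH1 followed the same order, at 286.5, 347 and 329 CPM in RY, 1.32 and 1.29 CPM in KO, and 11.2 and 21.6 CPM in WT. AJAP1, an adherens junction protein, gave 0, 0 and 0.0302 CPM in RY, 0.169 and 0.0900 CPM in KO, and 6.13 and 4.82 CPM in WT, with a KO difference of -5.36 ± 0.46. RAB3B, a small GTPase of regulated secretion, gave 6.03, 8.02 and 7.17 CPM in RY, 0.225 and 0.510 CPM in KO, and 7.75 and 8.82 CPM in WT. Only for RAB3B among these 4 was the RY difference from WT not significant (adjusted p = 0.385, edgeR).

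For the 7 members that were at least 4 times WT in RY, each WT library was set beside the RY mean. Over 183 genes off chromosome 1 with at least 20 CPM in RY and KO under 1% of RY, WT replicate 1 stood at a median of 4.07% of the RY mean and WT replicate 2 at 7.26%. FAF1 stood at 4.04% and 7.09% and ARMH1 at 3.50% and 6.73%. PIK3CD stood at 6.42% and 11.5% and FAAH at 7.61% and 10.6%. The other three were further above those medians, RCAN3 at 8.89% and 15.9%, SELENON at 18.8% and 16.9% and PGM1 at 23.7% and 21.6%. Of the 7 members, 5 were lower in KO. Without these 7 members the difference between the member median and that of the genes above 70 Mb was -0.351 in KO, close to the -0.352 with them. The part of this WT signal in the KO results of those genes was not tested.

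**Figure D4:**
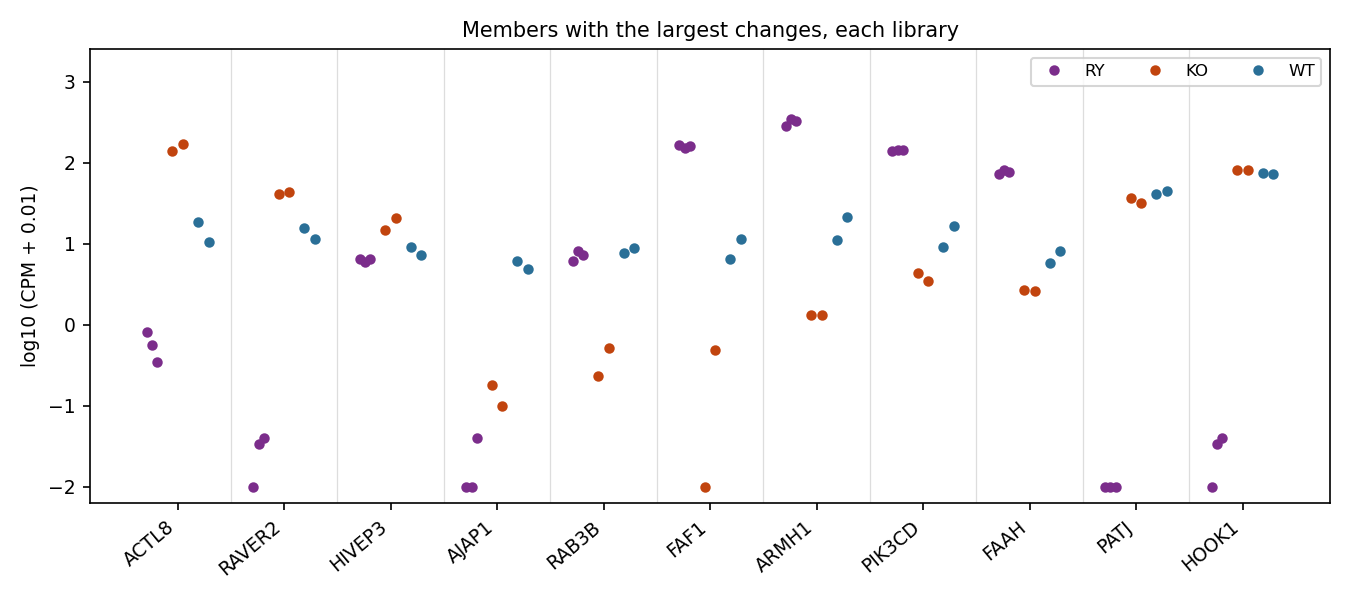
Level of 11 members in each library, as log10 of CPM plus 0.01 (vertical axis), with RY left of KO and KO left of WT for every gene and a point per library. FAF1, ARMH1, PIK3CD and FAAH are high in RY and lowest in KO, ACTL8 and RAVER2 are highest in KO, and PATJ and HOOK1 are at or near 0 in RY.

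In RY the stretch was also lower than WT by its median, but its members were scattered widely and the rest of the chromosome differed as well. The median log2 difference of members for RY against WT was -0.35, with quartiles of -0.97 and 0.16. It was -0.026 over all genes tested and -0.11 over genes of the other chromosomes that met the same WT level. By edgeR 221 members (52.0%) were lower and 82 (19.3%) higher, against 37.1% and 35.3% of all genes. At a fold of at least 2 the counts were 102 (24%) lower and 29 (6.82%) higher, against 25.4% and 23.7% of all genes. The WT level that members had to meet affects such shares. Among genes of the other chromosomes that met it, 41% were lower and 32.1% higher, and 21.5% and 12.1% at a fold of at least 2. All RY libraries lay below both WT libraries for 244 members (57.4%), against 41.2% of all genes, and above both for 94 (22.1%), against 40.5%. On the other chromosomes, at the same WT level, these shares were 45.3% and 36.9%. With library size alone in place of TMM scaling, the median of all genes moved by 0.19, the member median to -0.16 and the calls to 182 lower and 111 higher. The authors' deposited table of RY against WT listed 130 of the 425 members, 101 of them lower. It listed 242 of the 565 genes above 70 Mb, 190 of them lower, and 9877 of all 60666 genes, 5287 of them lower.

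The steps of the RY profile along the chromosome were larger than that of KO. From 70 Mb to the centromere gap, genes were higher in RY than in WT, with a median of 0.61, which is 152% of WT, and 89 of 137 (65.0%) were significantly higher. Past the gap the median was -0.87, which is 54.6% of WT, and 324 of 428 genes (75.7%) were lower. Over all of chromosome 1 the best single split of the RY differences fell past the gap, far from the KO split. It lay between GOLPH3L, which starts at 150646225, and CTSS, which starts at 150730196, with medians of -0.18 before and -0.90 after. With only the genes up to the gap, the split fell between GADD45A, which starts at 67685061, and DEPDC1, which starts at 68474152. That is within 2 genes of the KO split. The member median minus that of the genes from 70 Mb on was 0.28 over all of them, -0.96 over those up to the gap and 0.52 over those past it, so the sign of this difference depended on which part of the chromosome was set beside the stretch. Steps of this kind were frequent in RY, with chromosome medians from -0.81 on chromosome 16 to 0.52 on chromosome 13, and 1814 of 7402 runs of 50 genes on the other autosomes at or below the member median.

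**Figure D5:**
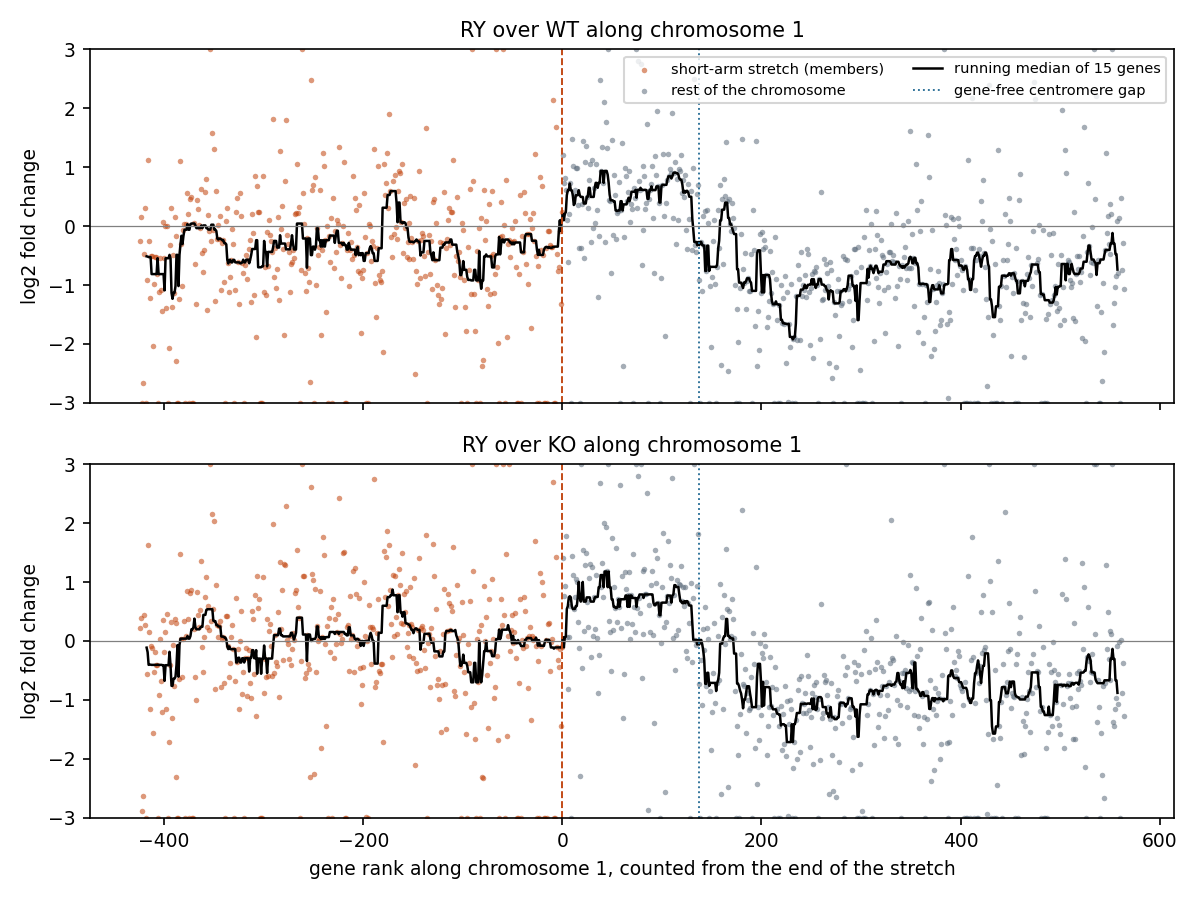
Log2 fold change of RY over WT (top) and RY over KO (bottom) for the genes of chromosome 1 in order of position, counted from the end of the stretch (horizontal axis), with a point per gene, orange within the stretch, and the running median of 15 genes in black. Points past the axis limits are drawn at the limit. In RY over WT the median is -0.35 in the stretch, 0.61 from its end to the dotted centromere gap and -0.87 past the gap, and in RY over KO it is 0.034, 0.74 and -0.86.

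Within the stretch the RY windows varied more than those of KO. The RY against WT medians of the 7 windows from the tip were -0.47, -0.44, -0.34, -0.22, -0.51, -0.28 and -0.36. Function groups spread out too, from -0.77 over the 29 signalling and small GTPase members, 18 of them lower and 4 higher, to 0.09 over the 27 cell cycle, replication and repair members, 7 lower and 9 higher. Mitochondrial proteins had a median of -0.52 with 17 of 27 lower, and members of the endoplasmic reticulum, Golgi and vesicle traffic -0.49 with 20 of 33 lower. Over all members 52% were lower and 19.3% higher in RY, and over all genes tested 37.1% and 35.3%. The medians of splicing and of ubiquitin pathway members were both -0.07 and turned to 0.13 with library size alone.

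The 4 members that follow had the largest increases in RY. PIK3CD, the leukocyte catalytic subunit of phosphoinositide 3-kinase, gave 141, 142 and 143 CPM in RY, 4.39 and 3.45 CPM in KO, and 9.11 and 16.3 CPM in WT. FAAH, which breaks down fatty acid amides such as anandamide, gave 72.7, 80.6 and 76.5 CPM in RY, 2.64 and 2.61 CPM in KO, and 5.83 and 8.13 CPM in WT. For both, RY was highest and KO lowest without overlap, and the log2 differences for RY against WT were 3.48 ± 0.23 and 3.45 ± 0.16 (SE, edgeR, adjusted p = 1.51e-06 and 1.54e-07). ARMH1 and FAF1, with levels as above, rose by 4.29 ± 0.27 and 4.16 ± 0.36.

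Members under 1% of their WT level were counted in RY and in KO. In RY 31 of 425 members (7.29%) were under that level, against 24 of 565 genes above 70 Mb (4.25%) and 521 of 8771 on the other chromosomes (5.94%). In KO the count was 0 members. The share over other genes was not computed for KO, so this count has no background beside it. PATJ gave 0 reads in each RY library, 36.8 and 31.5 CPM in KO, and 41.1 and 45.0 CPM in WT, so it was at least 1643-fold lower in RY than in WT against a floor of 3 reads over the RY libraries. ATAD3C gave 0 reads in RY, 17.8 and 16.8 CPM in KO, and 16.6 and 25.8 CPM in WT, at least 810-fold lower, though reads of its near-identical relatives ATAD3A and ATAD3B may be split between these genes. Neither gene passed the test between KO and WT by edgeR.

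The remaining members with no reads in RY were IGSF21, a cell surface protein with immunoglobulin domains, ARHGEF16, a guanine nucleotide exchange factor, and ESPN, an actin-bundling protein. They were at least 513.6-, 297- and 348-fold lower in RY than in WT. HOOK1, which links cargo to microtubule motors, had 2 reads over the RY libraries, 80.3 and 81.3 CPM in KO, and 73.6 and 72.0 CPM in WT. That is 4173-fold lower in RY than in WT, with a 95% exact Poisson interval from 1155 to 34450 that covers counting error only. The promoters of the 30 such members that were found held a median of 30 CG pairs, against 28 in the 344 other members found, and GGGCGG in 76.7% against 74.7%.

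RY and KO were also compared directly, without the WT libraries whose levels chose the members. The median log2 difference of members was 0.034, with quartiles of -0.60 and 0.51, against -0.031 over all genes tested. By edgeR 152 members (35.8%) were lower in RY than in KO and 138 (32.5%) higher, near the 37.8% and 35.6% of all genes. All RY libraries lay below both KO libraries for 173 members (40.7%) and above both for 167 (39.3%), against 43.3% and 41.3% of all genes. From 70 Mb to the gap the median was 0.74 and past the gap -0.86. Over the whole chromosome the best split again fell between GOLPH3L and CTSS. Up to the gap it fell between DEPDC1 and LRRC40, which starts at 70144805, the first gene past the limit. LRRC40 gave 65.2, 56.5 and 65.1 CPM in RY, 22.4 and 24.2 CPM in KO, and 27.3 and 26.7 CPM in WT, so RY was highest without overlap, by 1.42 ± 0.11 on the log2 scale against KO (SE, edgeR, adjusted p = 2.93e-06). SRSF11 gave 306, 318 and 299.5 CPM in RY, 182 and 181.5 CPM in KO, and 185 and 188 CPM in WT, and rose by 0.76 ± 0.08 in RY against KO. At GADD45A the order was the other way, with a log2 difference of -1.44 ± 0.13 for RY against KO.

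A list of genes recurrently deleted from the short arm in myeloma was drawn up from general knowledge. Genes left out of the stretch by name were not counted on it. Of its genes 14 were measured, and only 3 of these were members. Of these 14, 4 were lower and none higher in KO against WT, against 10.7% lower over all genes tested, and 5 were lower and 7 higher in RY against WT, against 37.1% and 35.3% over all genes. The 4 lower in KO were FAF1, TMED5, AHCYL1 and DPYD, of which the call of TMED5 was lost in 10 of 14 alternative fits, that of AHCYL1 in 8 and that of DPYD in 3, each of them without KO replicate 1 among others (adjusted p = 0.29, 0.159 and 0.063, edgeR). ARID1A, a subunit of the BAF chromatin remodeller, gave 283, 265 and 285 CPM in RY, 284 and 292 CPM in KO, and 348 and 307 CPM in WT. Both edited groups lay below WT for ARID1A, but the KO difference of -0.18 ± 0.10 was not significant (edgeR, adjusted p = 0.285). TNFRSF14, a receptor of lymphocyte signalling, gave 9.20, 13.1 and 9.65 CPM in RY, 55.1 and 50.1 CPM in KO, and 52.6 and 51.4 CPM in WT. TNFRSF14 was lowest in RY without overlap, with a log2 difference of -2.29 ± 0.15 against WT and -2.30 ± 0.15 against KO (edgeR, adjusted p = 1.36e-06 and 1.11e-06), and differed by 0.02 ± 0.16 in KO against WT. FAF1, given above, was the third.

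A list for band 1q21, which is often gained in myeloma, held 18 measured genes. They start from 145848522 (PIAS3) to 161766294 (ATF6), so the list extends past that band. None was called in KO against WT by edgeR, and the median was 0.032. At an unadjusted p under 0.05, 3 were lower and 1 higher, and by DESeq2 2 were lower. In RY 12 were lower and 4 higher, against 37.1% and 35.3% over all genes tested, with a median of -1.11. MCL1, an inhibitor of apoptosis, gave 346, 335 and 379.5 CPM in RY, 230.1 and 203 CPM in KO, and 237 and 299.6 CPM in WT. It was among the 4 that were higher in RY, a call lost with RY and WT fitted alone (edgeR, adjusted p = 0.06), without RY replicate 3 (0.0602) and without WT replicate 1 (0.087). The other three were ANP32E, IQGAP3 and PIAS3, and the call of PIAS3 was lost in 8 of 14 alternative fits and that of IQGAP3 in 1. CKS1B, a cofactor of cell cycle kinases, gave 30.9, 34.5 and 32.4 CPM in RY, 72.0 and 81.1 CPM in KO, and 83.4 and 69.2 CPM in WT, and was lower in RY, with a log2 difference of -1.23 ± 0.11 against WT.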

How the data were processed

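Bulk RNA was sequenced from RPMI 8226 cells in 3 libraries labelled RY, 2 labelled KO and 2 labelled WT, with a stranded TruSeq kit per the labels' protocols. The deposited table holds raw read counts for 60666 Ensembl genes, of which 58420 had a position in GENCODE release 29 on GRCh38. The submitters' processing notes list STAR 2.7.4 and HTSeq 0.9.1, besides FastQC and edgeR 1.34.1, and the build GRCh38, with no roles. Counts of overlapping, antisense and near-identical genes are uncertain, because strand setting and annotation release are not given in the sources used here. The comparison tables deposited by the authors hold log2 values (fold change and mean CPM), the F score and its p-value, raw and adjusted, and only their listed genes were counted here.

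Counts were scaled by TMM (factors 0.932 to 1.09) and tested with edgeR 4.0.16 in R 4.3.3 (quasi-likelihood, minimum count 10, all 7 libraries in a single fit, Benjamini-Hochberg over 18281 genes). A call is an adjusted p under 0.05, and standard errors are the log2 fold change divided by the square root of F. CPM in the text are TMM-scaled, while the level of 5 CPM that chose members was the raw count over the library total. Medians, windows and splits carry no test. Library sizes were 31368968 to 42813888 reads, and 3 reads, the floor, came to 0.0262 CPM over RY, 0.0435 over KO and 0.0393 over WT. Intervals and floors cover counting error only. The same 7-library fit was tested on data simulated for KO against WT from WT means in all groups, where 16280 genes were tested and 0.131% of unchanged genes were called. The members, lists and tests were chosen with earlier results of these data known. Named were the members nearest 70 Mb and their neighbours, the 2 with the highest WT level per 10 Mb window and per list, the 4 largest called increases and decreases without overlap in each comparison, and the measured myeloma genes, by count where not described singly, and some items are not reported here. Replicate numbers were not shown to pair the libraries. Alternatives were the scaling, DESeq2 1.42.0, filters, the 2 groups alone, a replicate block, each library left out, other CPM and position limits, and other reference genes. DESeq2, an alternative only, was run on the same counts.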

Additional observations from a re-analysis of the deposited data

How the results depend on the processing

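The KO member median minus that of the genes above 70 Mb was negative in every alternative run, from -0.372 to -0.253, the last with only the genes from 70 Mb to the centromere gap beside it. The 138 lower calls of KO were 177 by DESeq2 and 182 with no filter, but 39 with the 2 groups alone, and 37 to 227 when a library was left out. The 5 higher calls were 10 at a WT level of at least 1 CPM, 0 at 20 CPM (all 5 have less), and 4 to 10 when a library was left out. At 0 higher calls the filter had removed them, and DESeq2 called 5 at the main level. With a replicate block KO had 33 lower calls and RY against WT 185 lower and 67 higher. Deviations of same-numbered KO and WT libraries correlated at -0.3, and the crossed pairing gave 183 lower and 5 higher calls, both as hints from the data only. For RY against WT the member median minus that of the genes above 70 Mb, 0.282, was 0.524 against the genes past the gap, 0.379 and 0.231 at 20 and 1 CPM, 0.333 with the limit at 80 Mb, and reversed to -0.956 against the genes up to the gap. For RY against KO, 0.639, it was 0.893, 0.760, 0.571 and 0.706 under the same alternatives, 0.661 with the 2 groups alone, 0.580 with the level taken over all libraries, 0.619 with the limit at 60 Mb, 0.609 to 0.664 when a library was left out, and reversed to -0.706 up to the gap. The cause of these movements was not tested, except that the genes up to the gap are higher in RY. Of 133 calls of named genes, 109 were kept under the block, 117 to 129 when a library was left out, and none reversed. The block also ended the KO calls of RBBP4, NRDC, RCC2 and GNB1 (adjusted p = 0.202, 0.17, 0.11 and 0.127, edgeR), YBX1, UBR4 and PGD, and scaling by library size alone ended that of PGD (0.0547). In simulated counts, where few genes were changed, 1 of 50 genes at 0.8 times WT in KO was called. That share does not carry over to the data, and the effect of depth was not tested.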

Other observations

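Genes of the stretch below the level criterion were not counted as members. Of the 346 protein-coding genes that start below 70 Mb with under 5 CPM in WT, 144 were tested, 31 averaged at least 5 CPM in RY and 8 did so in KO. ZFYVE9, an endosomal protein of transforming growth factor signalling just under the level, averaged 19.9 CPM in RY, 7.03 CPM in KO and 4.97 CPM in WT.

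ROR1, a receptor tyrosine kinase at 63774022 to 64181498 that was singled out after its values were seen, gave 0.0250, 0.0482 and 0 CPM in RY, 6.55 and 4.56 CPM in KO, and 29.6 and 37.6 CPM in WT. The 3 groups did not overlap, and ROR1 was lower in KO than in WT, with a log2 difference of -2.59 ± 0.24 (SE, edgeR, adjusted p = 0.000146). JUN, a subunit of the transcription factor AP-1 that was chosen in the same way, gave 18.1, 17.8 and 17.5 CPM in RY, 10.4 and 10.3 CPM in KO, and 30.4 and 19.6 CPM in WT, with a KO difference of -1.27 ± 0.19 (adjusted p = 0.00222, edgeR).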
